A study of Homo sapiens with 6 samples.

Results

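The 10 genes described here are the TGF-beta ligands TGFB1, TGFB2 and TGFB3, the receptors TGFBR1, TGFBR2 and TGFBR3, the signal transducer SMAD3, the feedback inhibitors SMAD7 and SKIL, and the induced extracellular matrix gene TGFBI. They were chosen by symbol for their place in the pathway, with earlier results of these data known. All 10 were among the 16305 genes measured. RNA was sequenced from Huh7-R cells (written Huh7SR in the labels), a pool of the human hepatocellular carcinoma line Huh7 that had become resistant to the kinase inhibitor sorafenib through long exposure to it. Of the samples, 3 had been treated for 24 h with fostamatinib at 2 µM, an inhibitor of spleen tyrosine kinase, and 3 with the solvent DMSO, for which the labels write the same 2 µM. The authors did not detect the protein of that kinase in Huh7 cells and proposed that the drug acts through other targets. The cells of both groups had been kept in medium with sorafenib, which was withdrawn some days before experiments. The labels say that treatments were applied in triplicate but not whether these were separate cultures, so p-values may measure only a technical spread.

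The TGF-beta ligands are secreted in a latent form bound to their own propeptide and stored in the matrix until they are released. Released ligand binds TGFBR2, which phosphorylates TGFBR1, and TGFBR1 phosphorylates SMAD2 and SMAD3, which enter the nucleus with SMAD4 and act on transcription. Genes switched on in this way include SMAD7 and SKIL, whose products dampen the signal, and in the liver the pathway is known for restraining hepatocyte growth, for fibrosis and for the change of carcinoma cells toward a mesenchymal state.

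Between 13303451 and 15272737 reads per sample fell on the genes measured. Between samples, the chi-square per degree of freedom, which is 1 for pure counting error, was 1.65 to 3.74 within a group and 39.8 to 44.5 across the groups, and no sample stood apart from its group. All 12 hepatocyte markers were measured, ALB and AFP with at least 8568 and 25715 reads in every sample. Of the 12, 11 were called higher after fostamatinib (limma, adjusted p-value under 0.05), against 23.3% of all genes. The summed reads of the 12 were 71135 to 81636 with DMSO and 96298 to 105614 with fostamatinib. These sums and those that follow are not scaled for depth. Stellate cell and fibroblast markers (6 of 10 measured) summed to 4116 to 4596 and 4169 to 4420 reads, with COL1A2, PDGFRB and RGS5 called higher, LUM called lower and a median log2 fold change of 0.52. Leukocyte markers (3 of 8) summed to 244 to 287 and 200 to 243, and endothelial markers (2 of 7) to 105 to 130 and 158 to 186. Among the defining markers of those types, DCN, PDGFRA, ACTA2, DES, PTPRC, CD3E, CD68, VWF and CDH5 were not analysed here. The part of these markers in the results below was not tested. In RNA from whole cultures, a lower level in every cell cannot be told apart from fewer cells that express the gene.

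Of the 10 genes, 8 were lower after fostamatinib, 1 was higher and 1 did not pass the test (limma, Benjamini-Hochberg adjusted p-value under 0.05 over all genes). Calls were common among all genes, of which 24.5% were lower and 23.3% higher by the same rule. As the 10 genes were chosen with earlier results of these data known, the counts here describe them and test nothing. The median log2 fold change was -0.29 over the 10 genes and 0.0015 over all genes, while the median size of a change, without its sign, was 0.29 over the 10 genes and 0.27 over all genes. All fostamatinib samples lay below all DMSO samples for 7 of the 10 genes, against 27.4% of all genes, and above them for 1 gene, against 26.8%. A fall beyond 2-fold was called for 2 of the 10, TGFB2 and TGFB3, and for 3.29% of all genes.

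**Figure D1:**
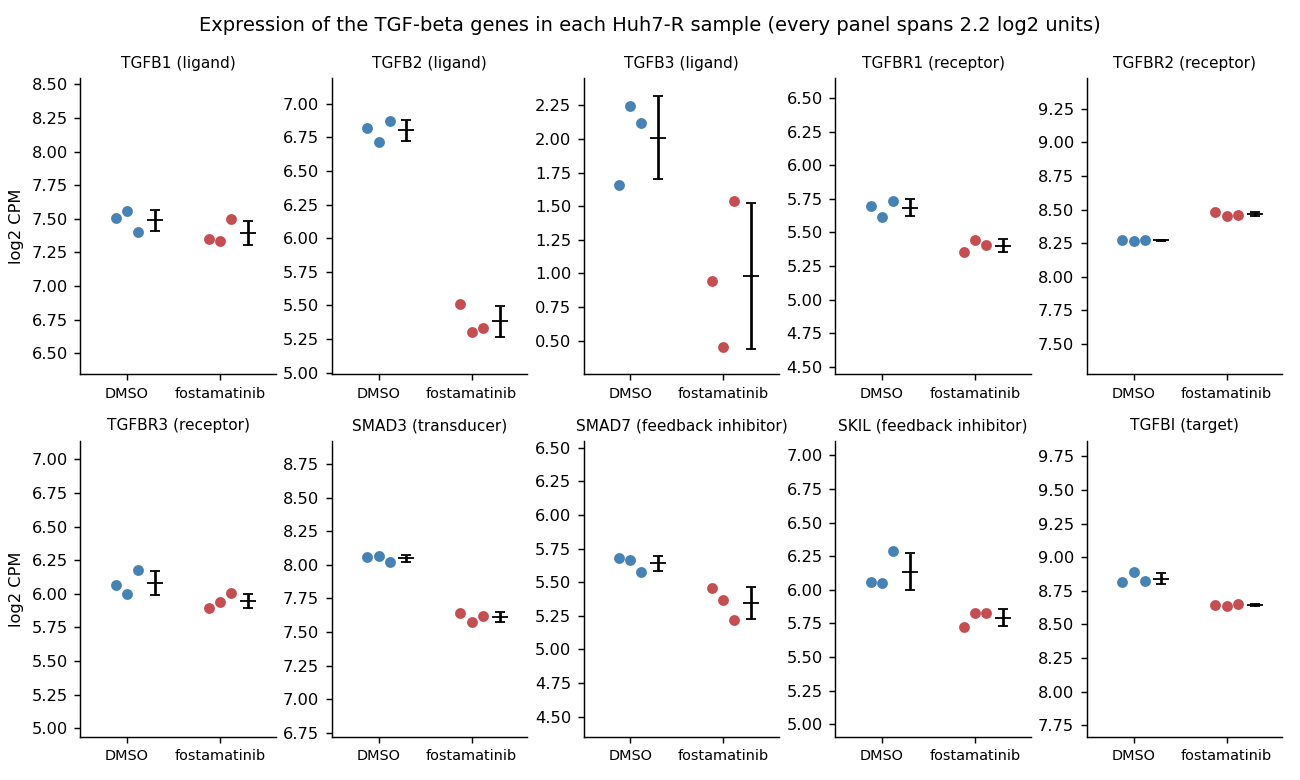
Expression as log2 CPM, the log2 of reads scaled to a common library size (vertical axis, each panel spanning 2.2 units) of the 10 genes in the 3 DMSO and the 3 fostamatinib samples. Points are samples and the black mark beside them is the mean with its SD. TGFB2 went from a mean of 6.80 to 5.38, TGFBR2 is the panel with the fostamatinib samples above the DMSO samples, and the groups overlap for TGFB1 and TGFBR3.

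Among the ligands, TGFB2 and TGFB3 fell and TGFB1 did not pass the test. TGFB2 (ENSG00000092969, hg19 as for every gene span here, chr1:218518678-218617961, plus strand) is the ligand whose binding to TGFBR2 depends most on the co-receptor TGFBR3. Its reads were 1556, 1607 and 1741 with DMSO and 628, 563 and 532 with fostamatinib. The groups were well apart, with every fostamatinib sample under every DMSO sample. As log2 CPM, the log2 of reads scaled to a common library size, the mean was 6.80 ± 0.078 (SD, n = 3) with DMSO and 5.38 ± 0.114 (SD, n = 3) with fostamatinib. This was a log2 fold change of -1.42 (SE 0.058, 95% interval -1.54 to -1.30, limma adjusted p = 6.78e-21), a level 62.7% lower. The exact permutation test of 3 against 3 gave p = 0.1, the smallest it allows. TGFB2-AS1, a gene on the opposite strand, shares 701 exon bases with TGFB2 and had 8, 5 and 3 reads with DMSO and 1, 0 and 1 with fostamatinib. TGFB2-OT1, on the same strand, shares 1371 exon bases with TGFB2 and was not among the genes measured. How reads on those bases were counted is not given in the sources used here.

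TGFB3 (ENSG00000119699, chr14:76424440-76449354, minus strand), a ligand best known from palate and mammary development, was lower as well but had few reads. There were 43, 72 and 64 reads with DMSO and 26, 19 and 38 with fostamatinib. The highest fostamatinib sample came close to the lowest DMSO sample without reaching it. The log2 fold change was -1.03 (SE 0.23, 95% interval -1.50 to -0.55, limma adjusted p = 3.83e-04). The SD within groups was 0.310 with DMSO and 0.544 with fostamatinib on the log2 scale, where counting error alone gives 0.187 and 0.274 for so few reads. The call rested on the trend of the variance with expression, and without it the limma adjusted p-value was 0.0518.

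TGFB1 (ENSG00000105329, chr19:41807492-41859827, minus strand), the ligand made by most tissues, was the member with no call. It had 2511, 2870 and 2516 reads with DMSO and 2244, 2299 and 2390 with fostamatinib. The groups overlapped once the values were scaled for depth, with log2 CPM of 7.51, 7.56 and 7.40 against 7.35, 7.33 and 7.49. The log2 fold change was -0.10 (SE 0.047, 95% interval -0.19 to -0.0019), with a limma adjusted p of 0.087. The result turned on single samples: without the third DMSO sample the limma adjusted p was 0.0104, and without the third fostamatinib sample 0.0186. HNRNPUL1 on the opposite strand shares 215 exon bases with TGFB1 and had 5230 to 6497 reads per sample. The counting setting for strand is not given in the sources used here, so reads of those bases cannot be told apart.

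To set the ligands against each other, their reads were divided by the length of their exons. These lengths include bases shared with other genes, such as 1371 and 701 for TGFB2 and 215 for TGFB1. The shares and levels therefore depend on how reads on those bases were counted, which is not known here. TGFB1 made up 74.3%, 75.9% and 72.0% of the ligand reads per kilobase with DMSO and 86.3%, 87.9% and 88.5% with fostamatinib. The share of TGFB2 was 24.9%, 22.9% and 26.9% with DMSO and 13.0%, 11.6% and 10.6% with fostamatinib. Neither share overlapped between the groups (exact permutation p = 0.1, two-sided, for each). TGFB3 took 1.04% ± 0.216 with DMSO and 0.653% ± 0.214 with fostamatinib (SD, n = 3), and here the groups overlapped (exact permutation p = 0.2). The summed level of the 3 ligands went from 74.4 ± 2.04 to 58.8 ± 3.22 RPKM (reads per kilobase scaled to library size, SD, n = 3, exact permutation p = 0.1). Within samples, the log2 ratio of TGFB2 to TGFB1 was lower by a change of -1.32 with no overlap, while the ratio of TGFB2 to TGFB3 differed by -0.39 with overlapping groups (exact permutation p = 0.1 and 0.5, adjusted over the 8 ratios compared 0.16 and 0.571). The TGFB2 to TGFB3 difference depended on single samples: it was -0.09 without the third fostamatinib sample, -0.21 without the first DMSO sample and -0.62 without the second fostamatinib sample.

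**Figure D2:**
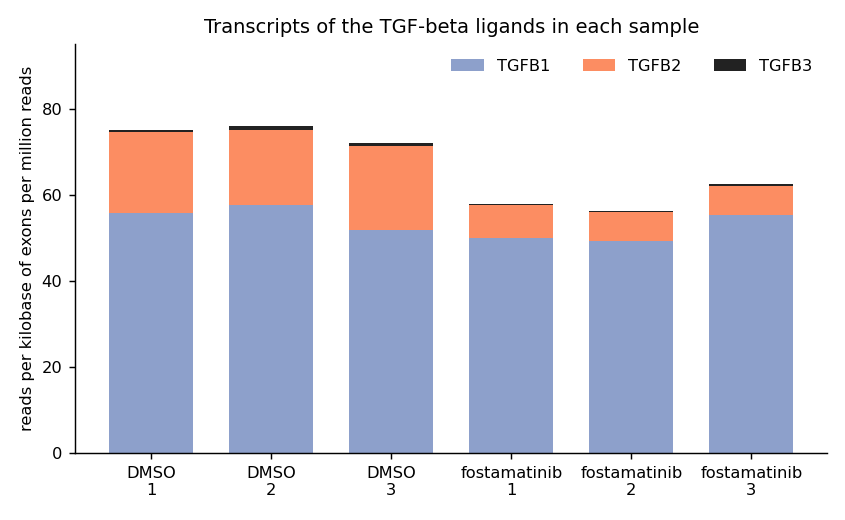
RPKM, reads per kilobase of exons scaled to library size (vertical axis), of the 3 TGF-beta ligands, stacked, in each of the 6 samples (horizontal axis). The mean went from 18.5 to 6.90 for TGFB2, from 55.1 to 51.5 for TGFB1 and from 0.775 to 0.389 for TGFB3, so the stacks of the fostamatinib samples are lower mainly by their TGFB2 segment.

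The type I and type II receptors moved in opposite directions. TGFBR1 (ENSG00000106799, chr9:101866320-101916474, plus strand), the kinase that phosphorylates the SMAD proteins, had 715, 747 and 792 reads with DMSO and 562, 621 and 560 with fostamatinib. Every fostamatinib sample was below every DMSO sample. The level was 17.8% lower (log2 fold change -0.28, SE 0.059, limma adjusted p = 1.51e-04). TGFBR2 (ENSG00000163513, chr3:30648093-30735634, plus strand), the receptor that binds ligand first, was the gene of the 10 that rose. Its reads were 4271, 4705 and 4598 with DMSO and 4925, 4997 and 4668 with fostamatinib. Scaled for depth, these were 8.28, 8.27 and 8.27 against 8.48, 8.45 and 8.46 on the log2 scale, with no overlap. The rise was 14.4% (log2 fold change 0.19, SE 0.036, 95% interval 0.12 to 0.27, limma adjusted p = 2.75e-05). The SD within groups, 0.0039 and 0.0159, was below the counting error of 0.0214 and 0.0207, while the standard error from limma borrows from the spread of all genes.

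TGFBR3 (ENSG00000069702, chr1:92145900-92371892, minus strand), or betaglycan, is a co-receptor with no kinase that presents ligand to TGFBR2. It had 924, 975 and 1073 reads with DMSO and 820, 876 and 850 with fostamatinib. The highest fostamatinib value, 6.004 on the log2 scale, lay just above the lowest DMSO value, 5.998, so the groups overlapped. TGFBR3 passed the test narrowly (log2 fold change -0.13, SE 0.056, limma adjusted p = 0.0491) and lost the call in 6 of 13 alternative fits, including those without the first or the third DMSO sample and the first or the second fostamatinib sample, in which the limma adjusted p reached 0.213. The log2 ratio of TGFBR1 to TGFBR2 within samples was -2.58, -2.65 and -2.54 with DMSO and -3.13, -3.01 and -3.06 with fostamatinib. That ratio differed by -0.48 between groups that did not overlap (exact permutation p = 0.1, adjusted over the 8 ratios 0.16).

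SMAD3 (ENSG00000166949, chr15:67356101-67487511, plus strand), a transducer that binds DNA directly, fell. It had 3680, 4091 and 3854 reads with DMSO and 2753, 2715 and 2602 with fostamatinib, with no overlap between groups. The mean log2 CPM was 8.05 ± 0.026 and 7.61 ± 0.036 (SD, n = 3), a level 26.1% lower (log2 fold change -0.44, SE 0.039, limma adjusted p = 1.38e-11). The other receptor-regulated transducer and the common partner, named here for their role after their values were seen, did not pass the test. SMAD2 had a log2 fold change of 0.06 (limma adjusted p = 0.362) and SMAD4 of -0.11 (limma adjusted p = 0.155).

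Both feedback inhibitors fell. SMAD7 (ENSG00000101665, chr18:46446223-46477335, minus strand) blocks the type I receptor and recruits ubiquitin ligases to it. Its reads were 706, 772 and 710 with DMSO and 603, 587 and 493 with fostamatinib. The groups did not overlap, and the level was 18.4% lower (log2 fold change -0.29, SE 0.064, limma adjusted p = 2.12e-04). SKIL (ENSG00000136603, chr3:170075130-170114623, plus strand) encodes SnoN, a repressor that binds the SMAD complexes. Its reads were 919, 1012 and 1164 with DMSO and 725, 811 and 753 with fostamatinib. Here too the groups were apart, with a level 21.0% lower (log2 fold change -0.34, SE 0.060, limma adjusted p = 1.25e-05). The log2 ratio of SMAD7 to SKIL within samples differed by 0.05 between overlapping groups (exact permutation p = 0.7), and that of SMAD3 to SMAD7 by -0.14, also with overlap (exact permutation p = 0.2).

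TGFBI (ENSG00000120708, chr5:135364677-135399507, plus strand), a secreted matrix protein named for its induction by TGF-beta, had 6209, 7233 and 6718 reads with DMSO and 5496, 5681 and 5327 with fostamatinib. The groups were apart, and the SD of the fostamatinib samples was 0.0063 on the log2 scale. The fall was 12.8% (log2 fold change -0.20, SE 0.036, limma adjusted p = 1.65e-05).

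**Figure D3:**
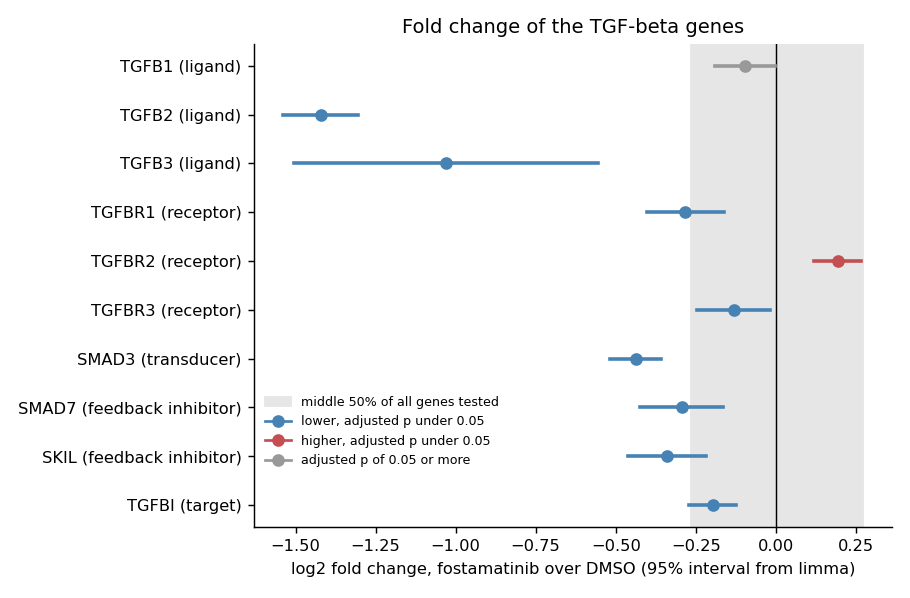
Log2 fold change, fostamatinib over DMSO (horizontal axis), of each of the 10 genes, with 95% intervals from limma as lines and the middle 50% of all genes tested, from -0.27 to 0.27, as a grey band. TGFB2 at -1.42 and TGFB3 at -1.03 lie furthest from 0, TGFB3 has the widest interval, and TGFBR2 at 0.19 is the gene with its interval above 0.

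Per kilobase of exon, the 10 genes spanned a wide range of levels, with the limit given above for exon bases shared with other genes. With DMSO the order was TGFBI (59.5 RPKM), TGFB1 (55.1), TGFBR2 (45.1), SMAD3 (26.5), TGFB2 (18.5), SMAD7 (12.6), SKIL (8.68), TGFBR3 (7.89), TGFBR1 (6.43) and TGFB3 (0.775). Of neighbours in that order, SKIL and TGFBR3 overlapped between samples and the others did not. With fostamatinib the level was 51.8 for TGFBI, 51.6 for TGFBR2 and 51.5 for TGFB1, and TGFBI overlapped with TGFBR2 and TGFBR2 with TGFB1. TGFB2 went from place 5 to place 7, at 6.90 RPKM, overlapping with TGFBR3 at 7.20 above it and SKIL at 6.83 below it. With the longest transcript as the length, SKIL stood above TGFB2 with fostamatinib, again with overlap, and TGFBI and TGFBR2 did not overlap.

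Sequences before the starts of TGFB2, the member with the lowest log2 fold change, and of both feedback inhibitors are shown because SMAD complexes bind the box CAGAC, searched here on both strands like every motif, and the cyclic AMP response element (CRE) TGACGTCA, a palindrome, is bound by factors of the CREB and ATF families. The sequences are from RefSeq (GRCh38.p14), 5′ to 3′ on the strand of the gene. For TGFB2 (chr1:218345086-218345335, plus strand) and SMAD7 (chr18:48950966-48951215, minus strand, the first of 3 starts) they are the 250 bases before the start, and for SKIL the 30 bases around its CRE (chr3:170357650-170357679, plus strand). Capitals mark the SMAD box in the first and second sequences and the CRE in the last.
TGFB2: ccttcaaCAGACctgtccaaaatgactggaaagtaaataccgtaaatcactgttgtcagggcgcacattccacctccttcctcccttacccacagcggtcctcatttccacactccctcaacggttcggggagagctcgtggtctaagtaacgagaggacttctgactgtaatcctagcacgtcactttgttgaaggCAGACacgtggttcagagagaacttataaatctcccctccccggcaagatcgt
SMAD7: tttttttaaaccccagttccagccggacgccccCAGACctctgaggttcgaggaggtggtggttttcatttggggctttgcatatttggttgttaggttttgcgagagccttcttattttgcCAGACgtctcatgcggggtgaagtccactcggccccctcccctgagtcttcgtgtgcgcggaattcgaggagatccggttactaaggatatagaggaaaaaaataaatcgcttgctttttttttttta
SKIL: cgaggactcggTGACGTCAgagggctgtgt
In the 250 bases before at least 1 of its starts, 6 of the 10 genes held a SMAD box: TGFB2, TGFB3, TGFBR1, SMAD3, SMAD7 and SKIL. A promoter with this box is common, at 38% of the 35116 promoters in the table, and genes with several starts had more chances of a match. The SMAD palindrome GTCTAGAC (0.182% of promoters) was in none of the 10. The AP-1 site TGACTCA (4.2% of promoters) matched before a start of SMAD3, and the CRE (1.65%) before that of SKIL. A GC box, GGGCGG (42.6% of promoters), was found for TGFB1, TGFBR1, TGFBR2, TGFBR3, SMAD3, SKIL and TGFBI. TGFB1, which was not called, TGFBR2, which rose, and TGFBR3 and TGFBI, which fell, had a GC box and none of the other motifs.

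The other genes of the pathway were counted from 5 lists written by role, with earlier results of these data known. The counts therefore describe the lists and test nothing. Genes that TGF-beta is known to regulate in many cell types were the list with the lowest median: of the 31 counted here, 21 were lower, 4 higher and 6 did not pass the test, with a median log2 fold change of -0.42. Over all genes, 24.5% were lower and 23.3% higher. Beyond 2-fold, 3 of the 31 were lower, against 3.29% of all genes. THBS1, thrombospondin, which can release latent TGF-beta, had 1104, 1144 and 1099 reads against 324, 284 and 302 (log2 fold change -1.79, SE 0.066, limma adjusted p = 4.24e-22). CTGF, a matricellular growth factor now called CCN2, had 710, 747 and 612 reads against 216, 189 and 201 (log2 fold change -1.68). BHLHE40, a transcriptional repressor, had 2613, 2919 and 2683 reads against 1096, 1144 and 1024 (log2 fold change -1.24). None of these 3 genes overlapped between groups, which is no further result, as they were named for the largest falls of the list. Over all genes, 27.4% had every fostamatinib sample below every DMSO sample. The log2 fold changes of THBS1 and CTGF were below that of TGFB2, a difference between genes that was not tested.

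Among the targets that rose were IL11, a cytokine of the interleukin 6 family (log2 fold change 0.56), and ID2 and ID3, inhibitors of basic helix-loop-helix factors (0.44 and 0.22), and TIMP1, a metalloproteinase inhibitor named after its value was seen, was called higher (0.19) although its groups overlapped. ID1 of the same family, named here after its value was seen, fell (-0.98). The list was not divided by whether TGF-beta raises or lowers a gene, so its counts are not counts of induced genes. ACTA2, ADAM12, ADAM19, MMP2, PMEPA1 and SNAI2 were not analysed here, and 5 of the targets counted also stand in another of the lists. Hepatocyte markers moved the other way in the same samples, with a median log2 fold change of 0.52 over the 12. This was not particular to them: the median was 0.52 over the 6 stellate cell and fibroblast markers measured and 0.65 over the 2 endothelial markers. It was -0.17 over the 3 leukocyte markers.

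**Figure D4:**
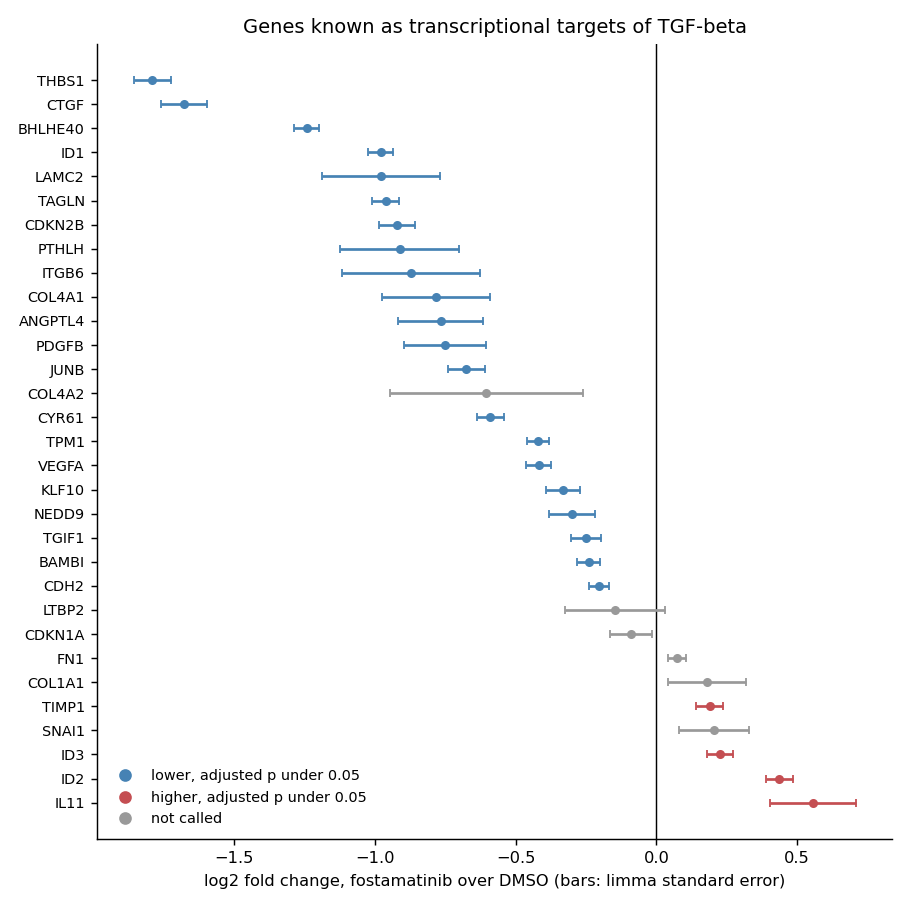
Log2 fold change, fostamatinib over DMSO (horizontal axis, bars showing the limma standard error), of the 31 known TGF-beta regulated genes counted here, 1 per line. Blue points (21) were called lower, red points (4) higher and grey points (6) were not called, and THBS1, CTGF and BHLHE40 stand at the low end.

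In the list for storage and release of latent ligand, 8 of 17 measured genes were lower, 3 higher and 6 not called, against 24.5% lower and 23.3% higher over all genes, and the median log2 fold change was -0.15. Besides THBS1, FBN2, a fibrillin that anchors latent complexes, and PCSK6, a proprotein convertase, fell (-0.73 and -0.65), and so did the integrin subunit ITGAV (-0.53), named here after its value was seen. LTBP3, a latent TGF-beta binding protein, FURIN, the convertase that cleaves the propeptide, and the fibrillin FBN1 rose (0.50, 0.32 and 0.27). Of the receptor partners and SMAD transducers, 7 of 12 measured were lower, none was higher and 5 were not called, with a median of -0.20. Over all genes, 24.5% were lower and 23.3% higher. The lower genes of this list included FKBP1A (-0.36), which binds the type I receptor, and STRAP (-0.32), which works with SMAD7 at the receptor. Another was ZFYVE9 (-0.25), or SARA, which brings SMAD2 and SMAD3 to the receptor. ENG, ACVRL1, PMEPA1 and LDLRAD4 of that list and LRRC32, DCN, BGN and ASPN of the storage list were not analysed here.

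The list of SMAD inhibitors and turnover also holds deubiquitinases and the ligase RNF111, which are known to sustain the signal, so its counts are not counts of inhibitors: 6 of 19 were lower, 7 higher and 6 not called, against 24.5% lower and 23.3% higher over all genes, with a median log2 fold change of 0.04. The count of lower genes was 3 without the first DMSO sample and also 3 without a variance trend. SMAD6, the second inhibitory SMAD, which acts mainly on the BMP branch, had a log2 fold change of -0.90 (limma adjusted p = 6.87e-12), and the deubiquitinase UCHL5 and the corepressor TGIF1 fell as well (-0.48 and -0.25). The ubiquitin ligases NEDD4L, STUB1 and WWP2 rose (0.34, 0.27 and 0.27). Of the DNA-binding partners and coactivators, 6 of 15 measured were lower, 7 higher and 2 not called, with a median of 0.06. The shares over all genes were again 24.5% lower and 23.3% higher. ATF3, a stress-induced factor that can pair with SMAD3, fell to a log2 fold change of -1.28, with RUNX1 at -0.77 and ZEB2 at -0.67, while FOXO1 (0.88), the acetyltransferase KAT2B (0.62) and RUNX2 (0.35) rose. FOXH1 and RUNX3 were not analysed here.

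**Figure D5:**
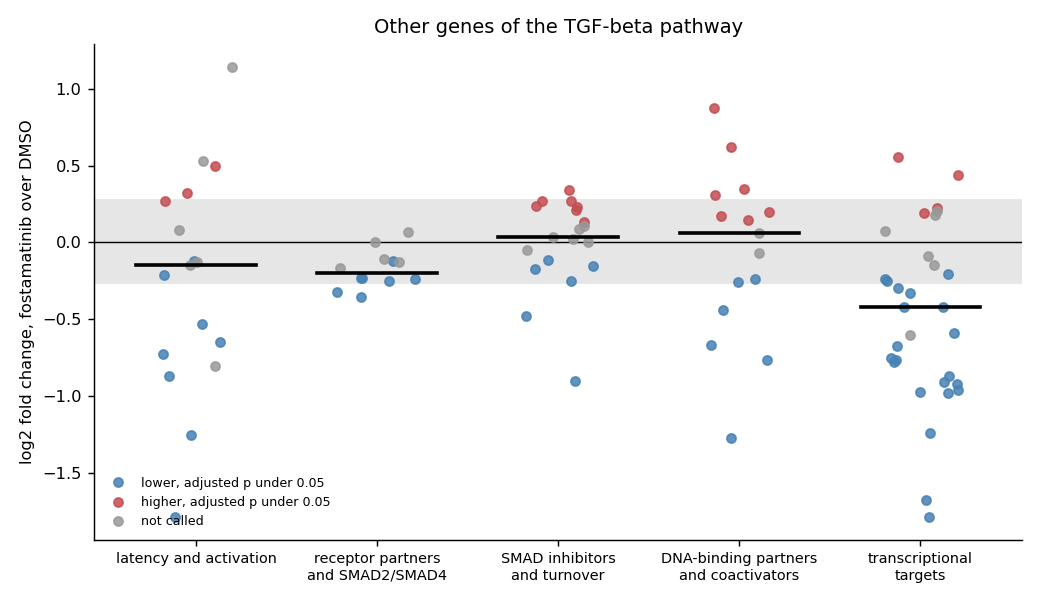
Log2 fold change, fostamatinib over DMSO (vertical axis), of the measured genes of the 5 pathway lists (horizontal axis), 1 point per gene, with black lines at the medians and a grey band for the middle 50% of all genes. The medians are -0.15 for latency and activation, -0.20 for the receptor partners, 0.04 for SMAD inhibitors and turnover, 0.06 for the DNA-binding partners and -0.42 for the transcriptional targets.

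Across the 6 samples, the genes whose log2 CPM ran closest to TGFB2 were CSE1L, CDC45 and EZH2, with Pearson r of 0.9994, 0.9993 and 0.9992 among the 11167 genes whose mean was 50 reads or more. As the samples form 2 groups, such values follow from the treatment difference and are given as a description: 1727 genes had an r above 0.95.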

How the data were processed

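RNA-seq libraries of Huh7-R cells were compared, 3 from fostamatinib and 3 from DMSO treatment. The authors aligned reads with HISAT (hg19), obtained gene counts from featureCounts with GENCODE v.22, left out genes that had under 5 reads in 2 or more of the 3 samples in both groups, and scaled the libraries by TMM. The deposited values are log2 CPM (reads scaled to library size, with 0.5 added to each count). Each could be turned back into reads, with 100% within 0.05 of a whole number, which gave the depth (13303451 to 15272737 reads) and the precision of each gene. Reads on genes removed by the filter are not included.

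The groups were compared with limma 3.58.1 in R 4.3.3 (lmFit, then eBayes with its variance trend) on the deposited values of 16305 genes, with Benjamini-Hochberg adjustment over all genes, and an adjusted p-value under 0.05 was a call. The residual degrees of freedom were 4, and with those borrowed from all genes 33.9. The fit was tested on simulated data in which the changes were 2-fold or more, so that test did not cover smaller changes. Exact permutation tests of 3 against 3 were two-sided and cannot go below 0.1. Fold changes are on the log2(reads + 0.5) scale, which understates the change of genes with few reads. Gene spans and exon lengths are from GRCh37 with GENCODE version 44 mapped to it (98.7% of identifiers found), and promoters from RefSeq. Software was scipy 1.17.1, pandas 2.3.3 and numpy 2.4.6 in Python 3.11.15, and matplotlib 3.10.9 for plots.

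The members and lists were chosen with earlier results of these data known. All 10 members are named, and of each list the genes past the threshold with the 3 largest rises and the 3 largest falls among genes averaging 50 reads or more in their higher group. ID1, TIMP1, ITGAV, SMAD2, SMAD4 and RNF111 were named outside that rule, as were several cell type markers. A result for 1 gene of the target list is not reported here, and the gene was left out of that list's counts and median. Alternatives were limma-voom on recovered reads, no variance trend, RLE scaling, library size alone, at least 10 reads in every sample, 5 reads added in place of 0.5, the replicate block, omission of each sample and, for ligand shares, the longest transcript.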

Additional observations from a re-analysis of the deposited data

How the results depend on the processing

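Across 13 alternative fits, 6 to 9 of the 10 genes were called lower and 1 higher, and over all genes 3287 to 4138 were called lower and 3095 to 3896 higher. TGFB2, TGFBR1, TGFBR2, SMAD3, SMAD7, SKIL and TGFBI kept their direction and their limma call in all 13. Without a variance trend, the limma adjusted p of TGFB3 was 0.0518 (log2 fold change -1.03), that of TGFBR3 was 0.163 (-0.13), and 3 genes of the list of SMAD inhibitors and turnover were called lower. With RLE scaling that of TGFBR3 was 0.0552 (-0.13). Leaving out each sample in turn gave a log2 fold change of -0.15 to -0.064 for TGFB1, -1.31 to -0.77 for TGFB3 and -0.17 to -0.085 for TGFBR3, and 3 to 5 genes of that list called lower. The SMAD7 to SKIL ratio, which had no call, ranged from -0.062 to 0.13 and turned to -0.062 without DMSO replicate 3 and -0.044 without fostamatinib replicate 1. With the longest transcript as length, the ligand shares were 76.1% for TGFB1, 22.5% for TGFB2 and 1.39% for TGFB3 with DMSO, and 10.5% for TGFB2 with fostamatinib. A paired fit with the replicate block called 3879 genes higher and 4098 lower and changed no call among the 10. The numbers did not pair the samples: deviations of samples with the same number correlated at 0.0365, -0.0213 and 0.0371 over 12249 genes, and 2 of 6 samples correlated best with their own number. The cause of these shifts was not tested. The 3 samples per group limit the precision, and for TGFB3, with 19 to 72 reads per sample, depth does too.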
